A study of Mus musculus with 16 samples.

Results

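The heat shock genes described here are 10 of the 24984 genes counted in kidney and liver RNA of aged mice. They were taken from a list by gene symbol, and all 10 symbols were present in each of the 16 count tables. The list was drawn up with kidney results of these libraries in view, because *Hspa4l* stood out among the kidney genes, so the kidney difference between treatments is given below as a description without a test. Female C57BL/6 mice of wild-type genotype had received AAV8, an adeno-associated virus vector, through the tail vein. The vector carried a hairpin RNA against *Fos* (labelled shFOS, shFos below) or a non-targeting hairpin (labelled shNT, NT below), so the controls carried a vector and a hairpin as well. The labels give an age of 24 months. The methods of the study place the injection at that age and the collection of tissue 3 months later. Each treatment is represented by 4 libraries per tissue, and the sources used here name neither the promoter that drove the hairpin nor the cells that took up the vector.

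Heat shock proteins are chaperones that keep other proteins folded, and many of their genes are switched on together when a cell holds unfolded protein. Hsp70 proteins bind exposed stretches of a client protein in a cycle driven by ATP. J-domain proteins such as Dnajb1 deliver clients and start the ATP step, and the Hsp110 proteins Hspa4, Hspa4l and Hsph1 are distant Hsp70 relatives that release ADP from Hsp70 and so end the cycle. Hsp90aa1 is the stress-inducible cytosolic Hsp90, which receives clients from Hsp70, and Hspb1 is a small heat shock protein that holds unfolded proteins without ATP. Hsf1 is the transcription factor that turns on many of these genes, and it binds repeats of the unit nGAAn in alternating orientation, the heat shock element. Hspa8 is the constitutive Hsp70 and is among the most abundant cytosolic chaperones of most tissues.

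The promoters of 4 members are shown because 2 of them belong to a near-identical pair of genes whose levels differ most between the tissues, 1 to the member with the smallest p in the liver and 1 to a member of the Hsp110 group. RefSeq promoter windows on GRCm38.p6 (the mm10 genome) were found for 7 of the 10 members (9 windows) and not for *Hspa8*, *Hsp90aa1* and *Hsf1*. Each sequence is the 150 bases just before the RefSeq start, 5′ to 3′ on the gene's strand, and capitals mark a pair of heat shock units (GAANNTTC or TTCNNGAA). None of these 4 windows overlaps an exon of the GENCODE M21 annotation. They are *Hspa1a* at chr17:34972157-34972306 (− strand), *Hspa1b* at chr17:34959239-34959388 (− strand), *Hspb1* at chr5:135887769-135887918 (+ strand) and *Hspa4* at chr11:53300480-53300629 (− strand).
Hspa1a: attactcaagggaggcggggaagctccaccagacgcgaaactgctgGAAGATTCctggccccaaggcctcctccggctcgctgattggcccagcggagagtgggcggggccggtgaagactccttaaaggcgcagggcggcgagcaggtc
Hspa1b: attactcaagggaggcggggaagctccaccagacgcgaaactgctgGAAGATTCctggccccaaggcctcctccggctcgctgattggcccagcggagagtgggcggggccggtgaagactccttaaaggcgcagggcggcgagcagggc
Hspb1: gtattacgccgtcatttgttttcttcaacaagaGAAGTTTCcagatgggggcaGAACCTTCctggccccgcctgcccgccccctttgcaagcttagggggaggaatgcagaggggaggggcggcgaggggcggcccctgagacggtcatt
Hspa4: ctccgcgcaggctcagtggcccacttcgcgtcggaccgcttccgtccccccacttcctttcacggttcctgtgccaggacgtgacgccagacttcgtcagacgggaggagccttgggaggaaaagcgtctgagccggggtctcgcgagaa

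The windows of *Hspa1a* and *Hspa1b* were identical at 149 of 150 bases, and both held GAAGATTC from 104 to 97 bases before the start. In *Hspb1* the matches were GAAGTTTC, from 117 to 110 bases before the start, and GAACCTTC, from 97 to 90 bases before it. *Hsph1* held TTCTCGAA from 33 to 26 bases before the first of its 2 RefSeq starts. The windows of *Hspa4*, *Hspa4l* and *Dnajb1* held no match within 250 bases. In *Hspa4l* all 150 bases before the RefSeq start lay in GENCODE exons of the gene itself. In the second of 2 *Dnajb1* windows 145 of 150 did so, and in the 2 *Hsph1* windows 40 and 61. Of 32851 mouse promoter windows searched over the same 250 bases, 12.8% held such a pair of units. The longer heat shock element of 3 alternating units, which contains such a pair, was in 0.466% of all windows and in none of the members' windows. The AP-1 motif TGANTCA, which Fos and Jun proteins bind together, was in 6.75% of all windows and in no member's window. All 3 motifs were searched on both strands. A match describes letters in the window and not a bound site.

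Reads counted on genes numbered 14194543 to 15534665 in a kidney library and 16652150 to 18300277 in a liver library, so that 3 reads were worth 0.164 to 0.211 CPM (reads scaled to a common library size). Libraries of 1 group differed by more than counting noise, and liver NT replicate 4 and kidney NT replicate 4 stood apart from the other libraries of their groups (chi-square per degree of freedom 334 to 431 and 63.6 to 67.7). Liver shFos replicate 3 differed from the other shFos livers by 55.7 to 72.5, against 19.9 to 25.5 among those others. Pairs of shFos kidneys differed by 22 to 58.5, with the largest value between replicates 1 and 3. *Fos* was 6.71, 5.26, 4.23 and 5.29 CPM in NT kidneys and 2.57, 4.12, 3.93 and 2.30 CPM in shFos kidneys, and the groups did not overlap (exact two-sided permutation test, p = 0.0286, the smallest that 4 against 4 libraries can give; edgeR quasi-likelihood test, adjusted p = 0.0947; DESeq2, adjusted p = 0.0421; 0.0421 to 0.223 over the alternatives). NT livers had 2.51 ± 1.08 CPM of *Fos* (SD, n = 4) and shFos livers 1.82 ± 0.637 CPM, with overlap between them (exact two-sided permutation test, p = 0.343). The 8 kidney epithelium markers were all read in kidney and summed to 11890 to 18500 CPM there against 0.981 to 2.56 CPM in liver. The 8 hepatocyte markers summed to 72440 to 202700 CPM in liver and to 413 to 1536 CPM in kidney, so each tissue carried the markers of its label.

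The 3 Hsp110 genes were the members with the clearest separation in the kidney. *Hspa4l* (chr3:40744495-40796103, + strand) encodes an Hsp110 protein abundant in testis. It was 26.3, 22.2, 24.4 and 19.9 CPM in NT kidneys and 41.2, 43.3, 42.8 and 44.9 CPM in shFos kidneys. Every shFos kidney lay above every NT kidney, and the shFos libraries lay closer together than the NT libraries (SD 1.51 against 2.76 CPM). The difference on the log2 scale was 0.89 with a standard error (SE) of 0.098, a ratio of means of 1.86. With a correction for the GC content of transcripts, which is 39.5% in *Hspa4l*, the log2 fold change was 0.68 (SE 0.096). *Hspa4* (chr11:53259814-53300457, − strand), its ubiquitous relative, was 168, 144, 164 and 118 CPM in NT kidneys and 175, 222, 230 and 225 CPM in shFos kidneys. The lowest shFos kidney, replicate 1, was just above the highest NT kidney, and the log2 fold change was 0.52 (SE 0.14). *Hsph1* (chr5:149614287-149636376, − strand), the heat-inducible Hsp110 also called Hsp105, was 125, 86.3, 94.3 and 60.3 CPM in NT kidneys and 161, 146, 132 and 127 CPM in shFos kidneys. The gap between the groups was small beside the spread of the NT kidneys, and the log2 fold change was 0.63 (SE 0.20).

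Of the Hsp70 genes among the members none separated the treatments in the kidney. *Hspa8* (chr9:40800984-40810087, + strand) was 2456, 1686, 1807 and 1469 CPM in NT kidneys and 1248, 2427, 2439 and 1891 CPM in shFos kidneys, and shFos replicate 1 was the lowest of all 8. The stress-inducible gene *Hspa1a* (chr17:34969190-34972156, − strand) was 16.9, 14.5, 13.1 and 21.3 CPM in NT kidneys and 28.8, 15.8, 15.4 and 10.98 CPM in shFos kidneys. Its neighbour *Hspa1b* (chr17:34956436-34959238, − strand), which encodes a nearly identical protein, was 29.4, 27.5, 23.1 and 34.4 CPM in NT kidneys and 85.98, 40.5, 23.7 and 15.9 CPM in shFos kidneys. For both genes shFos replicate 1 was the highest and shFos replicate 4 the lowest of the 8 kidneys. Their log2 fold changes were 0.11 (SE 0.28) and 0.54 (SE 0.45), and without shFos replicate 1 they were -0.27 and -0.13. The library with the most *Hspa1a* and *Hspa1b* therefore had the least *Hspa8*.

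The chaperones that work with Hsp70 lay between these patterns. *Hsp90aa1* (chr12:110690605-110702728, − strand) was 429, 316, 364 and 254 CPM in NT kidneys and 387, 490, 580 and 498 CPM in shFos kidneys, with a log2 fold change of 0.52 (SE 0.18) and an overlap through shFos replicate 1. *Dnajb1* (chr8:83608193-83612653, + strand) was 43.0, 45.6, 38.04 and 39.8 CPM in NT kidneys and 42.0, 52.2, 68.5 and 52.0 CPM in shFos kidneys, and again shFos replicate 1 alone was inside the NT range. The log2 fold change of *Dnajb1* was 0.37 (SE 0.14).

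*Hspb1* and *Hsf1* were the members with negative kidney values. *Hspb1* (chr5:135887919-135889563, + strand) was 39.2, 39.6, 35.2 and 38.5 CPM in NT kidneys and 45.6, 35.1, 23.2 and 23.5 CPM in shFos kidneys, a log2 fold change of -0.26 (SE 0.20). *Hsf1* (chr15:76477422-76501913, + strand) was 46.7, 52.1, 45.5 and 42.9 CPM in NT kidneys and 47.2, 35.6, 30.8 and 32.3 CPM in shFos kidneys, a log2 fold change of -0.36 (SE 0.14). In both genes shFos replicate 1 lay within or above the NT range and the other shFos kidneys lay below it. With the GC correction the values were -0.02 (SE 0.15) for *Hspb1*, whose transcript is 60.7% GC, and -0.18 (SE 0.10) for *Hsf1*, whose transcript is 57.4% GC.

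**Figure D1:**
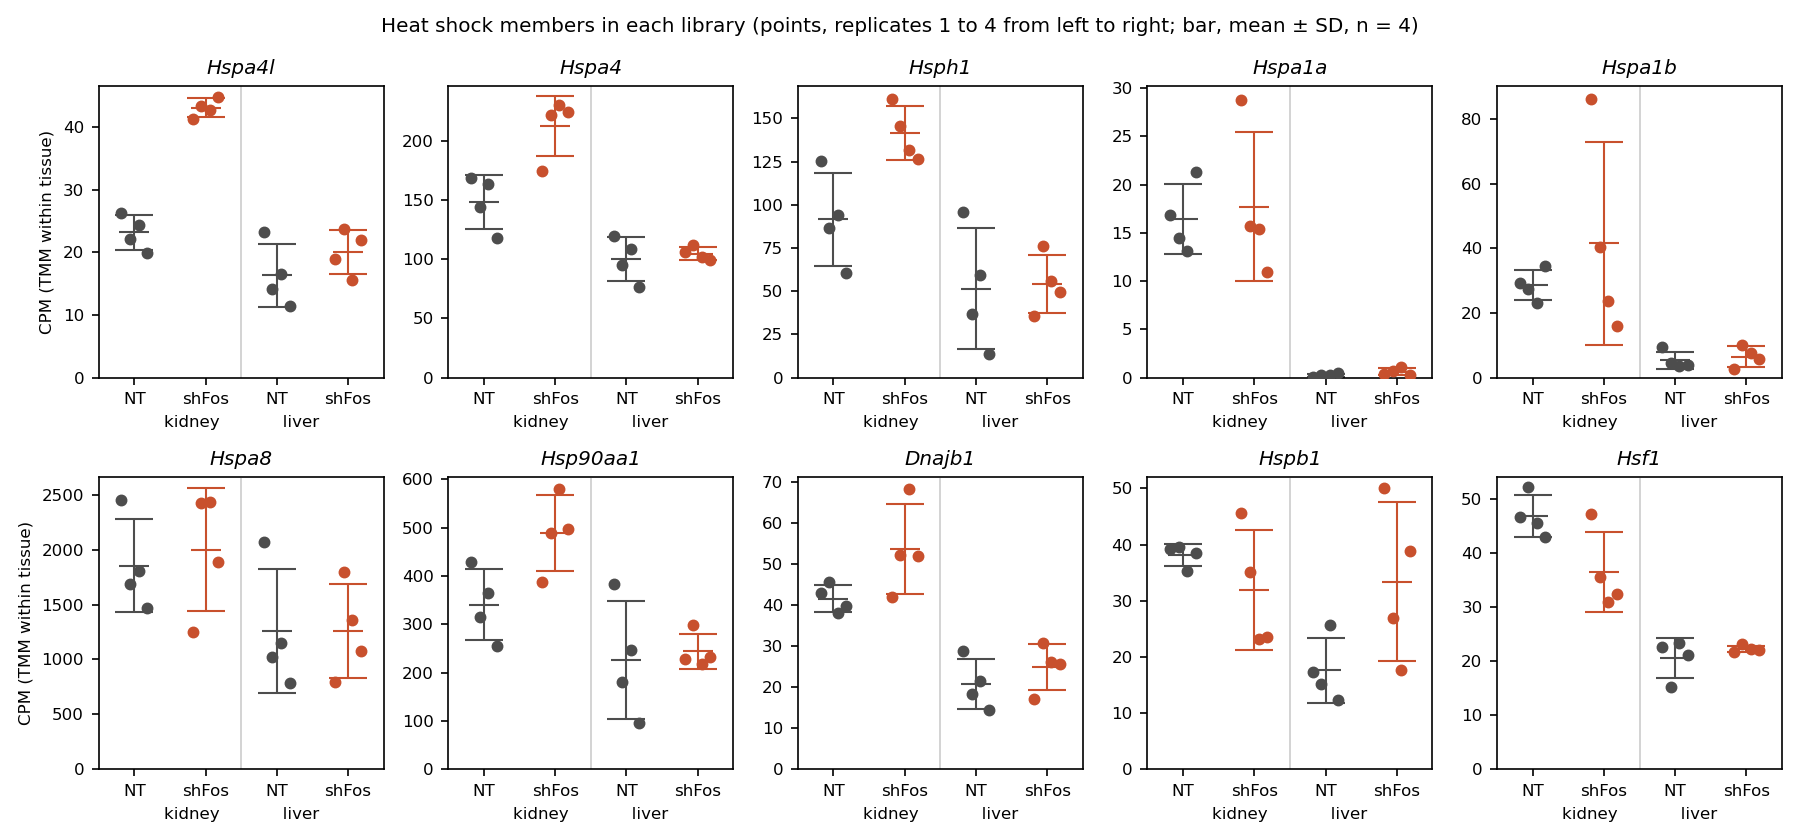
CPM (scaled by TMM within each tissue) of the 10 members in each of the 16 libraries, one panel per gene, with points for replicates 1 to 4 and bars for the mean ± SD (n = 4). In the kidney *Hspa4l*, *Hspa4* and *Hsph1* are higher in each shFos library than in each NT library, while in the liver the groups of all 10 genes overlap.

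In all, 8 of the 10 kidney values were above 0 and 2 below, with a median of 0.44 against 0.002 over all 14892 genes tested. The groups did not overlap for 3 members, all higher in shFos, beside 9.16% of all genes that were higher and 8.04% that were lower without overlap. Across all genes edgeR called 0 kidney genes at an adjusted p under 0.05 (0.0%), while 32.0% had an unadjusted p under 0.05 and DESeq2 called 18.3%. Since the choice of members used this contrast, nothing is read from these counts. The sign of 8 members stayed when shFos replicate 1 and NT replicate 4 were both left out, a choice made after the libraries were seen, and *Hspa1a* and *Hspa1b* turned to -0.11 and -0.02. In these bulk libraries fewer cells of a type and less RNA per cell cannot be told apart. The summed kidney epithelium markers (8 of 8 read) were 11890 to 15660 CPM in NT and 16230 to 18500 CPM in shFos kidneys. The summed endothelium markers (5 of 5 read) were 265 to 341 CPM in NT and 371 to 442 CPM in shFos kidneys. The part of these differences in the members' values was not tested.

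**Figure D2:**
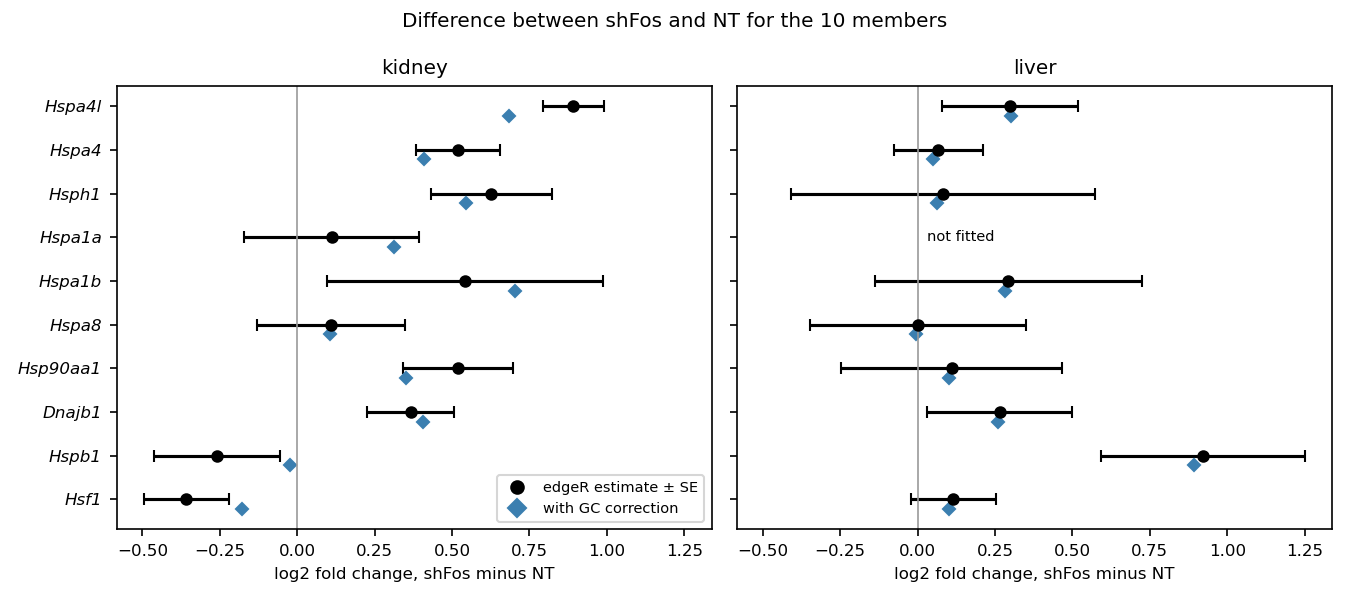
Log2 fold change of shFos against NT for each member in kidney (left) and liver (right), with the edgeR estimate ± SE as circles and bars and the estimate after GC correction as diamonds. *Hspa4l* is at 0.89 (kidney) and 0.30 (liver), *Hspb1* is at -0.26 and 0.92, and *Hspa1a* had too few liver reads to be fitted.

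In the liver no member separated shFos from NT. Of the 10 members 9 passed the filter on low counts, and all 9 had log2 fold changes above 0, from 0.001 for *Hspa8* to 0.92 for *Hspb1*, with a median of 0.12 against -0.01 over all 13144 genes tested, of which 47.7% were above 0. edgeR's quasi-likelihood test called 0 of the 9 (adjusted p from 0.702 to 0.9997) and 0.0% of all genes, DESeq2 called 0 of the 9 and 0.289% of all genes, and 1 member, *Hspb1*, had an unadjusted p under 0.05, beside 6.82% of all genes (3.6% higher, 3.23% lower). No member had groups without overlap, beside 4.31% of all genes (2.79% higher, 1.52% lower). The sign of a small value was not stable, and 5 of the 9 members took both signs when single libraries were left out. Several of the 9 varied together among these livers, as described below, so their signs are not separate observations.

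*Hspb1* was 17.2, 15.2, 25.7 and 12.3 CPM in NT livers and 50.1, 26.8, 17.6 and 38.9 CPM in shFos livers. Replicates 1, 2 and 4 of shFos were above all NT livers and replicate 3 was inside their range. The log2 fold change of 0.92 (SE 0.33) had an edgeR p of 0.0202 before and 0.702 after adjustment, and adjusted p ranged from 0.338 to 0.956 over the alternatives. The exact two-sided permutation test of *Hspb1* gave p = 0.0571. Of its stretches of 150 bases, 53.4% also occur in the pseudogene *Hsp25-ps1*, so reads of *Hspb1* are uncertain.

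The Hsp110 genes did not repeat in the liver the separation they had in the kidney. *Hspa4l* was 23.2, 14.1, 16.6 and 11.5 CPM in NT livers and 18.97, 23.7, 15.6 and 21.95 CPM in shFos livers, a log2 fold change of 0.30 (SE 0.22, 95% interval -0.20 to 0.79, edgeR adjusted p = 0.767). The interval holds 0. *Hspa4* was 120, 95.3, 108 and 76.5 CPM in NT livers and 106, 112, 102 and 99.3 CPM in shFos livers, a log2 fold change of 0.07 (95% interval -0.26 to 0.39). *Hsph1* varied widely, at 95.9, 36.9, 59.2 and 13.4 CPM in NT livers and 35.5, 76.0, 56.1 and 49.4 CPM in shFos livers. The NT range of *Hsph1* enclosed all 4 shFos livers, and the 95% interval of its log2 fold change was -1.02 to 1.19. Whether the liver differs from the kidney was not tested, because the kidney values chose the members.

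The levels of *Hspa8*, *Hsp90aa1* and *Dnajb1* varied more among NT livers than they differed between the groups. *Hspa8* was 2071, 1025, 1151 and 781 CPM in NT livers and 794, 1799, 1362 and 1078 CPM in shFos livers, and its log2 fold change of 0.001 had a 95% interval of -0.78 to 0.79. *Hsp90aa1* was 384, 180, 246 and 94.6 CPM in NT livers against 228, 298, 218 and 231 CPM in shFos livers. *Dnajb1* was 28.9, 18.4, 21.4 and 14.4 CPM in NT livers against 17.2, 30.8, 26.0 and 25.7 CPM in shFos livers. For *Hsp90aa1* the shFos livers all fell inside the NT range, and for *Dnajb1* 3 of the 4 did. *Hsf1* had the narrowest shFos group, 22.2 ± 0.595 CPM (SD, n = 4) against 20.5 ± 3.69 CPM in NT livers, with a 95% interval of -0.19 to 0.42 for its log2 fold change.

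*Hspa1b* and *Hspa1a* were scarce in the liver. *Hspa1b* was 9.37, 4.56, 3.54 and 3.92 CPM in NT livers and 2.64, 10.1, 7.63 and 5.74 CPM in shFos livers, from 47 to 181 reads. *Hspa1a* had 1, 4, 5 and 8 reads in NT livers and 7, 12, 18 and 4 reads in shFos livers. These are 0.245 ± 0.146 CPM and 0.589 ± 0.359 CPM (SD, n = 4), and the exact two-sided permutation test gave p = 0.171. A difference in *Hspa1a* between treatments was not detectable at this depth.

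Between the tissues, *Hspa1a* and *Hspa1b* were the members that differed most. In the NT libraries, scaled together, *Hspa1a* was 11.7 ± 2.73 CPM (SD, n = 4) in kidney, from 201 to 330 reads, and 0.346 ± 0.208 CPM in liver. The fitted level was 32.2-fold higher in kidney, the log2 difference of liver from kidney was -5.01 (SE 0.47), and edgeR's quasi-likelihood test called it (adjusted p = 1.22e-07). *Hspa1b* was 20.3 ± 3.59 CPM in NT kidney and 7.52 ± 3.78 CPM in NT liver, 2.72-fold higher in kidney by the fit, with a log2 difference of -1.44 (SE 0.49, adjusted p = 0.0164). After the GC correction the difference of *Hspa1b* was -1.07 (edgeR adjusted p = 0.0523), which ends the call. NT kidneys and NT livers did not overlap for either gene.

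The difference between both genes also changed their balance. Reads of *Hspa1a* made up 25.1% (95% exact Clopper-Pearson interval 23.1% to 27.2%) to 40.9% (35.7% to 46.2%) of the reads of the pair in the 8 kidneys, with a median of 36.4%. In the 8 livers they made up 0.699% (0.0177% to 3.84%) to 12.96% (5.37% to 24.9%), with a median of 6.53%. Every kidney was above every liver. The intervals cover counting error only. Stretches of 150 bases shared with other genes made up 39.7% of *Hspa1a* and 40.5% of *Hspa1b*, mostly shared with each other, and 564 exon bases of *Hspa1a* overlap *Gm20481* on the other strand, which counting without strand cannot separate. How such reads were divided was not tested.

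*Hspa4* and *Hspa4l* were higher in NT liver than in NT kidney by small amounts. *Hspa4* was 105 ± 15.4 CPM in kidney and 141 ± 25.6 CPM in liver, a log2 difference of 0.42 (SE 0.14, edgeR adjusted p = 0.0146). *Hspa4l* was 16.4 ± 1.83 CPM in kidney and 23.0 ± 6.92 CPM in liver, a log2 difference of 0.48 (SE 0.18, edgeR adjusted p = 0.0263). The NT kidneys were also 1 side of the kidney contrast through which *Hspa4l* was noticed. A low NT kidney level may have been favoured by that choice. The adjusted p of *Hspa4l* and the count of members called are therefore not independent of it. The means of the shFos libraries were not higher in liver. Per kb of transcript, *Hspa4l* was 3.203 ± 0.0947 CPM (SD, n = 4) in shFos kidney and 3.003 ± 0.5538 CPM in shFos liver. The NT means were 1.731 and 2.421 CPM. *Hspa4* was 32.47 ± 3.534 CPM in shFos kidney and 32.19 ± 1.709 CPM in shFos liver, with NT means of 22.74 and 30.48 CPM. Whether shFos kidney and shFos liver differ was not tested. In both genes the ranges of the NT libraries overlapped. Thus 4 of the 10 members were called between the tissues, 2 in each direction, against 64.7% of 15421 genes tested (30.2% higher and 34.5% lower in liver). The other 6 were not called, with log2 differences from -0.20 for *Hsf1* to 0.43 for *Hspa8*. The calls of *Hspa4* and *Hspa4l* were lost without liver NT replicate 1 or without kidney NT replicate 4, which left 2 members called, and that of *Hspa4l* was lost without kidney NT replicate 2 as well. Both were also lost with upper-quartile scaling (edgeR adjusted p = 0.111 and 0.110) and in the 8 NT libraries alone (0.0589 and 0.0707), but not in those 8 with the replicate number as a block (0.00877 and 0.0226). Without liver NT replicate 4, *Hsp90aa1* was also called, at 0.66 (edgeR adjusted p = 0.0199), and with upper-quartile scaling *Hsf1* was, at -0.36 (edgeR adjusted p = 0.0421).

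Per length of transcript, *Hspa8* and *Hsp90aa1* were the highest members in both tissues. In NT kidneys the levels per kb were 548 CPM for *Hspa8*, 73.5 for *Hsp90aa1*, 29.9 for *Hspb1*, 22.7 for *Hspa4*, 17.0 for *Hsph1*, 16.4 for *Hsf1*, 9.83 for *Dnajb1*, 7.23 for *Hspa1b*, 3.93 for *Hspa1a* and 1.73 for *Hspa4l*. Neighbours in this order overlapped only for *Hspa4* with *Hsph1* and *Hsph1* with *Hsf1*. In NT livers *Hspa8* at 738 CPM per kb and *Hsp90aa1* at 96.9 again led, and *Hspa1a* at 0.117 was last. From *Hspa4* at 30.5 through *Hspb1*, *Hsph1* and *Hsf1* to *Dnajb1* at 9.75, each liver neighbour overlapped the next, as did *Hspa1b* at 2.68 and *Hspa4l* at 2.42. Reads on *Hspa8* and *Hsp90aa1* share 55.4% and 36.2% of their stretches of 150 bases with pseudogenes.

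**Figure D3:**
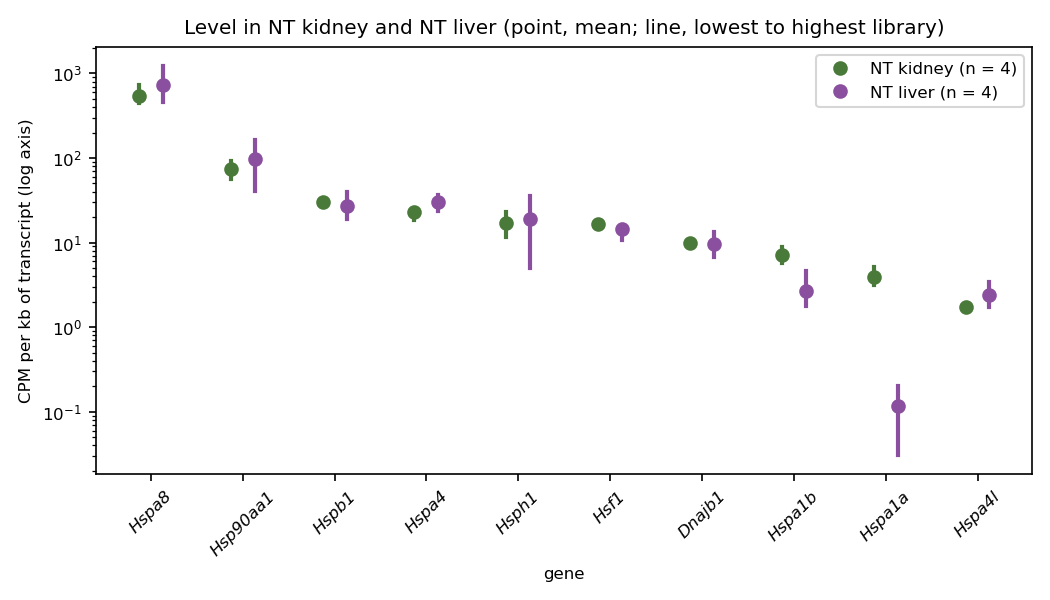
CPM per kb of transcript on a log axis for each member in NT kidney and NT liver, with the mean as a point and the lowest to highest of 4 libraries as a line. *Hspa1a* falls from 3.93 in kidney to 0.117 in liver, *Hspa1b* falls from 7.23 to 2.68, and the means of the other members differ by at most 1.40-fold between the tissues.

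The same-numbered NT libraries of the 2 tissues ranked alike for 5 of the 9 members tested in both. For *Hspa4l*, *Hspa4*, *Hsph1*, *Hspa8* and *Hsp90aa1* the order in NT kidneys was replicate 1, 3, 2 and 4 from high to low, and the order in NT livers was the same. *Hsph1*, for example, fell from 125 to 60.3 CPM between replicates 1 and 4 in the kidney and from 95.9 to 13.4 CPM in the liver. *Hspa1b*, *Dnajb1*, *Hspb1* and *Hsf1* did not share an order between the tissues. Over all 12727 genes tested in both tissues, 9.11% had the same order in both, and 0.974% had the order 1, 3, 2 and 4. The 5 members with that order varied together among the 4 NT livers (Pearson r of log2 CPM from 0.91 to 0.999). Their shared order is therefore not 5 separate observations. In the shFos libraries none of the 9 members kept its order, beside 4.59% of all genes. The labels do not say that a replicate number marks 1 animal, and this pattern was looked for after the values had been seen. In NT livers 1 to 4 the hepatocyte markers summed to 202700, 137600, 128800 and 72440 CPM, so replicate 4 was lowest in these markers too. In NT kidneys 1 to 4 the kidney epithelium markers summed to 15600, 14840, 15660 and 11890 CPM, again with replicate 4 lowest. Replicate 4 was also the lowest NT library for the fibroblast and mural markers, at 177 CPM in kidney (497.5 to 573.9 CPM in the others) and 36.2 CPM in liver (53.3 to 93.9 CPM in the others). The part of these markers in the order was not tested.

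**Figure D4:**
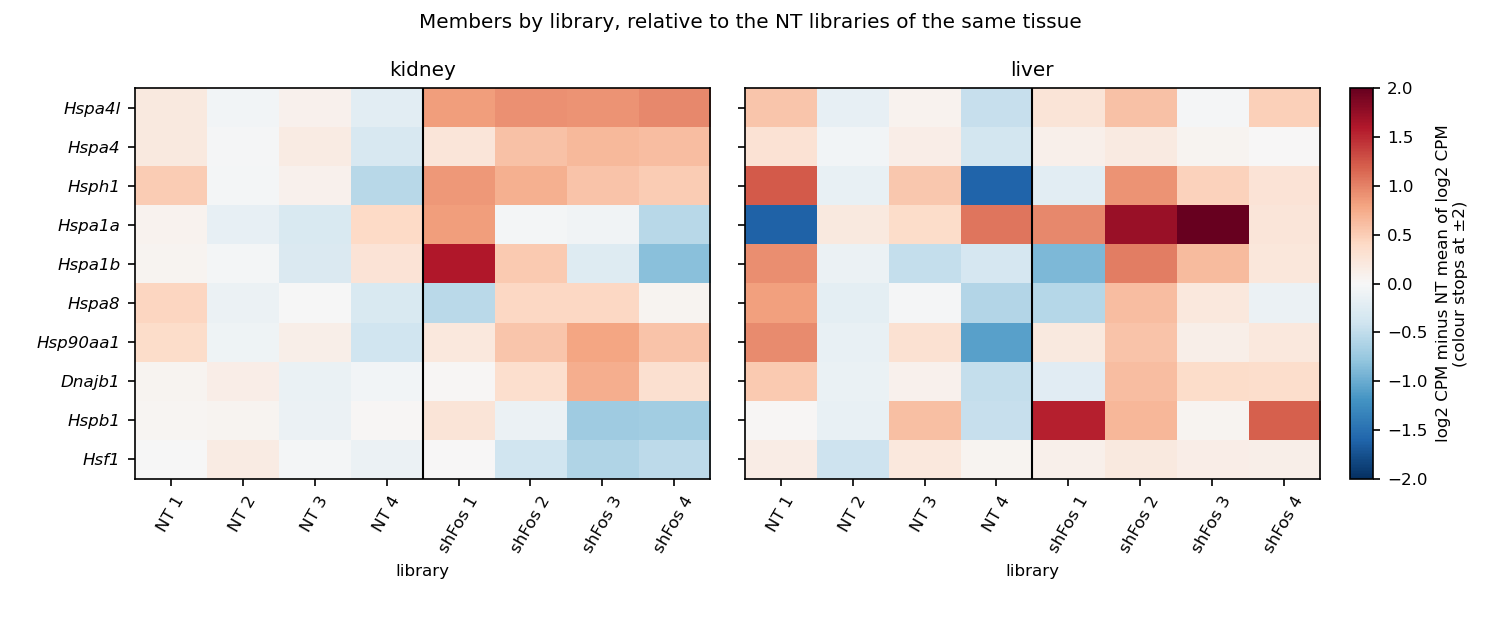
Log2 CPM of each member in each library, minus the mean of the log2 CPM of the 4 NT libraries of the same tissue, with red above and blue below that mean and the colour scale stopping at ±2. The first 3 rows are red in all 4 shFos kidneys, and liver NT replicates 1 and 4 have opposite colours for most members.

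Among the 8 livers the same 5 members and *Dnajb1* varied together. Of the 45 pairs of members, 38 had a positive Pearson correlation of log2 CPM, with a median of 0.43, and 13 passed an exact permutation test with Benjamini-Hochberg adjustment over the 45, all positive. Spearman's rho passed for 7 pairs and was highest for *Hsph1* with *Hspa8* (rho = 0.98, exact permutation p = 0.000397, adjusted p = 0.0179). The highest Pearson r was that of *Hspa4* with *Hsp90aa1* (r = 0.99, exact permutation p = 0.000124, adjusted p = 0.00558; rho = 0.93, exact permutation p = 0.00223, adjusted p = 0.0335), and without the 2 livers farthest from the median of *Hspa4* r was 0.90. *Hsph1* with *Hsp90aa1* had r = 0.97 (exact permutation p = 0.00057, adjusted p = 0.0100; rho = 0.88, exact permutation p = 0.00724, adjusted p = 0.0466), and 0.80 without the 2 farthest livers. *Hspa4l* with *Hsp90aa1* had r = 0.89 (exact permutation p = 0.000893, adjusted p = 0.0100; rho = 0.90, exact permutation p = 0.00456, adjusted p = 0.0411), and 0.77 without the 2 farthest livers. These 6 members made up 11 of the 13 pairs, and the other 2 joined *Hspa1b* with *Hspa8* and with *Dnajb1*. *Hsf1*, *Hspb1* and *Hspa1a* were in none of them.

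With values taken as deviations from the mean of each treatment, 13 pairs passed as well. The number depended on single livers: it was 2 without NT replicate 4, 3 without shFos replicate 2, 5 without NT replicate 1 and 7 without NT replicate 2. Over all 86375796 pairs of the 13144 liver genes the median r was -0.002, and 2.74% of them reached 0.79, the lowest r among the 13. Of the 36 pairs of the 9 members tested in the liver, 14 reached it, and 10 did so without NT replicate 4, beside 2.64% of all pairs. As a description, *Hspa4* with *Hsp90aa1* had r = 0.96 in the 8 kidneys after each treatment's mean was removed, while *Hspa1b* with *Hspa8* had -0.54 there and 0.905 in the livers.

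The other chaperones and co-chaperones were 84 genes chosen by their known function. In the kidney 81 were tested, and edgeR called 0 of them, as it called 0.0% of all genes. An unadjusted p under 0.05 was found for 34 (42.0%), 25 higher and 9 lower in shFos, beside 32.0% of all genes, of which 17.1% were higher and 14.9% lower. DESeq2 called 22 (18 higher, 4 lower), 27.2% of those tested beside 18.3% of all genes (10.4% higher, 7.92% lower). Without shFos replicate 1 edgeR called 33 (24 higher, 9 lower), beside 27.8% of all genes, and without NT replicate 4 as well it called 36, beside 34.8%. The median log2 fold change of the 81 was 0.17 (0.15 after GC correction), against 0.002 over all genes, and 59 were above 0, beside 50.3% of all genes.

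By role, the 14 chaperones of the endoplasmic reticulum had a median kidney value of 0.33 (0.25 after GC correction). All 14 were above 0, beside 50.3% of all genes. Of them 6 (42.9%) had an unadjusted p under 0.05, beside 32.0% of all genes (17.1% higher, 14.9% lower). With NT replicate 2, 3 or 4, or shFos replicate 2 or 4, left out singly, 13 of the 14 were above 0. The median was 0.25 without NT replicate 4. The 8 subunits of the cytosolic chaperonin, which folds actin and tubulin, were also all above 0 (3 with an unadjusted p under 0.05). Their median was 0.22, and 0.13 after GC correction. Of 9 mitochondrial chaperones and proteases 7 were above 0 (median 0.26, also after GC correction), and 6 higher and 1 lower had an unadjusted p under 0.05. Among 20 Hsp90 proteins and co-chaperones of Hsp70 and Hsp90, 13 were above 0, and 2 in each direction had an unadjusted p under 0.05. The 6 other Hsp70 proteins, 3 of them above 0, had 3 higher and 1 lower at that level, and the 10 other J-domain proteins had 4 higher and 1 lower. The other small heat shock proteins had a median of -0.20, with 3 of 6 above 0 and 2 lower at that level. That median was -0.049 after GC correction, -0.64 without shFos replicate 1 and -0.0043 without shFos replicate 3. Of the 3 other heat shock factors and regulators tested 1 was lower, and of the 3 ubiquitin and proteasome adaptors 1 was higher. Whether genes of 1 role varied together between libraries was not tested, so their signs are not taken as separate observations.

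The 3 genes with the smallest p among those higher in shFos kidneys were *Dnajb6*, *Hspd1* and *St13*. *Dnajb6*, a J-domain protein that blocks aggregation, was 64.8 ± 4.28 CPM (SD, n = 4) in NT and 86.5 ± 6.59 CPM in shFos kidneys, a log2 fold change of 0.42 (SE 0.085). *Hspd1*, the mitochondrial chaperonin Hsp60, was 338 ± 51.9 and 507 ± 71.6 CPM, a log2 fold change of 0.59 (SE 0.15). *St13*, a co-chaperone that steadies Hsp70 bound to its client, was 137 ± 15.4 and 216 ± 50.1 CPM, a log2 fold change of 0.66 (SE 0.17). All 3 had an edgeR adjusted p of 0.0650, while DESeq2 called them (adjusted p = 0.00117, 0.00388 and 0.00622). Over the alternatives the adjusted p of the 3 ranged from 0.00117 to 0.190.

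On the lower side were *Dnajc7*, *Cirbp* and *Hsf4*. *Dnajc7*, a J-domain protein that binds both Hsp70 and Hsp90, was 118 ± 9.45 CPM in NT and 92.9 ± 5.65 CPM in shFos kidneys (log2 fold change -0.34, SE 0.085, edgeR adjusted p = 0.0650). *Cirbp*, an RNA-binding protein induced by mild cold, was 61.95 ± 29.8 and 25.6 ± 9.81 CPM (-1.27, SE 0.34, edgeR adjusted p = 0.0652). *Hsf4*, a heat shock factor best known from the lens, was 6.95 ± 1.86 and 3.08 ± 1.26 CPM (-1.17, SE 0.31, edgeR adjusted p = 0.0658). The groups of *Dnajc7* and *Cirbp* did not overlap and those of *Hsf4* did. DESeq2 called all 3, with adjusted p of 0.00802, 0.00491 and 0.00935, and over the alternatives the adjusted p of the 3 ranged from 0.000222 to 0.192. Without NT replicate 4 the log2 fold change of *Cirbp* was -0.88.

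In the liver 78 of the 84 genes were tested, and neither edgeR nor DESeq2 called any, beside 0.0% and 0.289% of all genes. An unadjusted p under 0.05 was found for 3 (3.85%), all lower in shFos, beside 6.82% of all genes (3.6% higher, 3.23% lower). The 3 were chaperones of the endoplasmic reticulum. Of the 14 genes of that group 12 had liver values below 0, while 47.7% of all genes were above 0. The median of the 14 was -0.35 against -0.01 over all genes, and it was -0.18 without NT replicate 4. As in the kidney, these signs are not taken as separate observations. *Sdf2l1*, a stress-inducible protein of that compartment, was 48.7 ± 12.1 CPM in NT and 32.5 ± 6.95 CPM in shFos livers (log2 fold change -0.58, SE 0.22, edgeR adjusted p = 0.703). *Dnajb11*, a co-chaperone of the Hsp70 protein BiP, had -0.47 (SE 0.20) and *Pdia4*, a disulphide isomerase, had -0.34 (SE 0.15). On the higher side the smallest p were those of *Bag2* (0.53, SE 0.24), a nucleotide exchange factor of Hsp70, *Trap1* (0.33, SE 0.16), the mitochondrial Hsp90, and *Dnajb4* (0.25, SE 0.13), a cytosolic J-domain protein, all with an edgeR adjusted p of 0.726 or more. The difference between the tissues in these genes was not tested. Summed fibroblast and mural markers (5 of 5 read) were 36.2 to 93.9 CPM in NT and 94.6 to 149 CPM in shFos livers, and their part in these values was not tested.

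**Figure D5:**
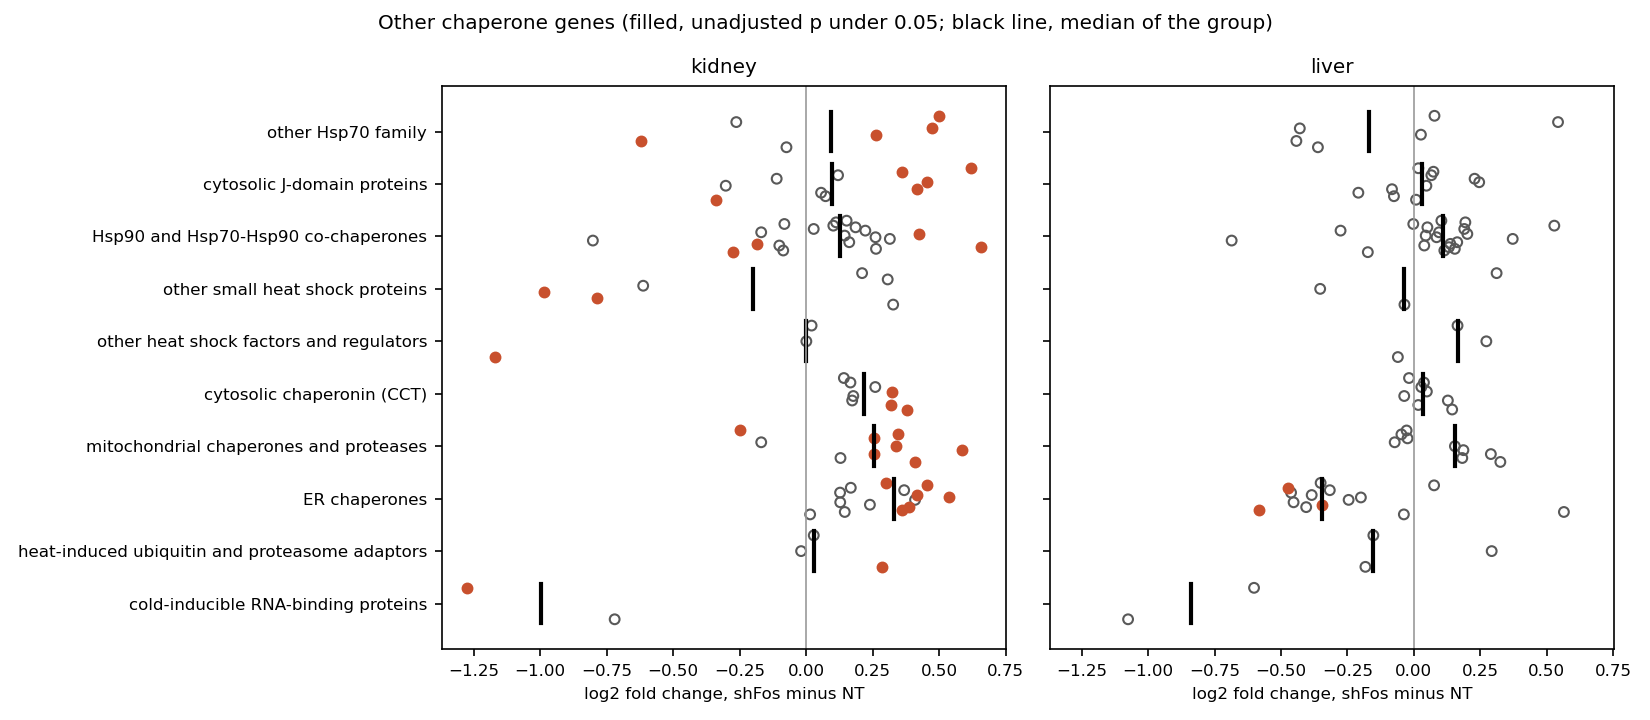
Log2 fold change of shFos against NT for the tested genes of 10 groups of other chaperones and regulators in kidney (left) and liver (right), with filled circles for an unadjusted p under 0.05 and a black line at each group's median. The chaperones of the endoplasmic reticulum have medians of 0.33 (kidney) and -0.35 (liver).

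The genes whose log2 CPM followed *Hspa4l* most closely across the 8 kidneys were *Atrn* (Pearson r = 0.99), *Rngtt* (0.99), *Dock1* (0.98), *Dock8* (0.98) and *Pcdh7* (0.98). These 8 points hold the treatment difference through which *Hspa4l* was noticed, so the values describe the libraries only. Of the members, *Hspa4* came closest at 0.92, ranked 241 over the genes tested, followed by *Hsph1* at 0.86 and *Hsp90aa1* at 0.85. Across the 8 livers the closest genes were *Ybx1* (0.97), *Fam168b* (0.97), *Pnpla3* (0.97), *Dusp16* (0.96) and *Dlat* (0.96), none of which was among the closest in the kidney. There *Hsp90aa1* was the closest member at 0.89, ranked 122.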

How the data were processed

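RNA-seq was measured in 16 libraries, 4 for each of NT kidney, shFos kidney, NT liver and shFos liver. The authors trimmed the reads with Trimmomatic 0.39, aligned them to mm10 with HISAT2 2.2.1 and counted them per gene with HTSeq 0.12.4 without regard to strand, and they deposited raw read counts per gene symbol. The 5 summary lines at the end of each table were left out. Other experiments of the study were not analysed here. The members and the lists of chaperones and markers were chosen with earlier results of these data known, the lists by textbook function.

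Kidney and liver had separate fits with edgeR 4.0.16 under R 4.3.3 (low counts removed by filterByExpr, TMM scaling, robust dispersion, default quasi-likelihood test), with Benjamini-Hochberg adjustment over all genes tested and calls at an adjusted p under 0.05. Tissues were compared in 1 fit of all 16 libraries. CPM are TMM-scaled within a tissue, or over all 16 libraries where tissues are compared. Correlations used log2 CPM with a prior count of 2. Levels per kb used the longest RefSeq-matched GENCODE M21 transcript, from which positions, GC content (98.2% of genes) and shared stretches of 150 bases were taken; the study's own annotation can differ. Alternatives were DESeq2 1.42.0, upper-quartile scaling, no filter, a mean of at least 10 counts, edgeR's newer dispersion, a GC correction (lowess span 0.3), the replicate number as a block, other sets of libraries, a fold change above 2 or below 0.5, and each library left out. A fit without kidney NT replicate 4 and shFos replicate 1, and a fit of the 8 NT libraries with the block, were added after seeing the data.

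Genes named are the members, *Fos*, *Cirbp*, *Rbm3*, the 3 other chaperone genes of smallest p per direction and tissue, and the 5 genes most like *Hspa4l* in each tissue. Deviations from group means over all genes correlated between same-numbered NT kidney and NT liver libraries at r = 0.123, 0.368, 0.401 and 0.36. NT kidney 1 correlated most with NT liver 3. Same-numbered shFos libraries had r of 0.0691, 0.156, 0.0409 and 0.104, and shFos kidney 3 correlated most with shFos liver 2. The block in the fit of all 16 libraries changed no member's call. It also joined NT and shFos libraries of 1 number, so it cannot check the pairing. In the 8 NT libraries alone, 2 members were called without the block and 4 with it. The labels name no separate animals for the replicates, so p-values measure the spread between these libraries. No pair of libraries of a group agreed within sampling noise (smallest chi-square per degree of freedom 7.17). Intervals of log2 fold changes at 95% used SE and the t distribution with the degrees of freedom of the edgeR test. Clopper-Pearson intervals and the limit of 3 counts cover counting error only. The fit was tested on simulated counts with 200 changed genes. Those counts were drawn independently for each gene, without shifts shared by the genes of a library, so they cannot show how the fit handles such shifts.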

Additional observations from a re-analysis of the deposited data

Results flagged for a closer look

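Of 40 sets of 4 libraries (10 members in 4 groups), 2 held a library far from its group by Dixon's test, where chance alone gives about 1 in 20, that is 2. *Hspa4* in the kidney was lowest in shFos replicate 1, at 174.7 CPM against 221.7 to 229.9 CPM in the other shFos kidneys. *Hsp90aa1* in the liver was highest in shFos replicate 2, at 298.4 CPM against 218.2 to 231.2 CPM in the other shFos livers. The cause was not tested.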

How the results depend on the processing

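No liver call was made for the members or for the other chaperones under any alternative run. Of 4 members called between the NT tissues, 2 were called in the 8 NT libraries alone, 2 at a fold change above 2 or below 0.5, and 2 to 5 when single libraries were left out. Upper-quartile scaling moved the median of all genes between the tissues from -0.05 to -0.21 on the log2 scale, and 3 members were called (*Hspa1a*, *Hspa1b* and *Hsf1*, the last at -0.36, edgeR adjusted p = 0.0421). For the other chaperones in kidney the 0 calls became 22 with DESeq2, 6 in a fit of all 16 libraries, 0 to 33 without single libraries (33 without shFos replicate 1) and 36 without NT replicate 4 and shFos replicate 1. The 13 liver pairs became 9 with upper-quartile scaling and 2 to 16 without single livers. The number of kidney members above 0 was 6 without shFos replicate 1 and 8 without any other library.

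Treatments share replicate numbers without being paired: deviations of same-numbered NT and shFos libraries correlated at -0.173 to 0.116 in kidney and -0.261 to 0.0395 in liver. With the replicate block 0 members were called in liver, 4 between the tissues (4 in the 8 NT libraries alone with the block), and 0 other chaperones in either tissue.

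Signs of several members turned. In the liver *Hspa8* (main value 0.001) was -0.0020 with DESeq2, -0.0013 without a filter and -0.0062 with the GC correction. Without single livers, log2 fold changes ranged from -0.055 to 0.16 for *Hspa4*, -0.25 to 0.56 for *Hsph1*, -0.22 to 0.34 for *Hspa8*, -0.16 to 0.48 for *Hsp90aa1* and -0.016 to 0.18 for *Hsf1*. Between the tissues *Hsph1* was -0.022 with upper-quartile scaling and -0.11 in the 8 NT libraries with the block, and the GC correction turned *Dnajb1* to 0.18, *Hspb1* to 0.36 and *Hsf1* to 0.12. Without single libraries the ranges were -0.33 to 0.47 for *Hsph1*, -0.21 to 0.13 for *Dnajb1* and -0.37 to 0.015 for *Hspb1*. The cause was not tested. Depth limits *Hspa1a* in the liver, with 1 to 18 reads.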

Other observations

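*Cirbp* and *Rbm3* encode RNA-binding proteins that are induced by mild cold and fall in heat. *Rbm3* was 82.3 ± 56.7 CPM (SD, n = 4) in NT and 50.0 ± 15.98 CPM in shFos kidneys, a log2 fold change of -0.72 (SE 0.40, edgeR adjusted p = 0.250). In the liver it was 51.0 ± 51.1 CPM in NT and 24.2 ± 6.73 CPM in shFos samples, a log2 fold change of -1.08 (SE 0.55, edgeR adjusted p = 0.728), and *Cirbp* was 26.0 ± 14.7 and 17.2 ± 3.87 CPM (-0.60, SE 0.34, edgeR adjusted p = 0.733). edgeR called neither gene in either tissue, and DESeq2 called *Cirbp* in the kidney (adjusted p = 0.00491). Most of 3 of these 4 differences rested on 1 library: without NT replicate 4 the value of *Rbm3* was -0.11 (kidney) and -0.083 (liver), and that of *Cirbp* in the liver was -0.14, while *Cirbp* in the kidney stayed at -0.88. NT replicate 4 was the highest NT library for *Rbm3* in both tissues, at 167 CPM in the kidney (lowest NT kidney 53.4 CPM) and 128 CPM in the liver (lowest NT liver 23.3 CPM), and for *Cirbp*, at 106 and 47.9 CPM. The same replicate was the lowest NT library for *Hspa4l*, *Hspa4*, *Hsph1*, *Hspa8* and *Hsp90aa1* in both tissues, with *Hsph1* at 60.3 and 13.4 CPM. This was noticed after the values were seen, and its cause was not tested.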
